A study of Mus musculus with 21 samples.

Results

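The nuclear-encoded subunits of respiratory complexes II to V and cytochrome c were examined in mouse hematopoietic stem cells (HSCs). Members were the protein-coding genes whose symbols begin with Uqcr or Atp5, are Sdha to Sdhd, Cyc1 or Cycs, or follow the subunit pattern of Cox4 to Cox8. This symbol rule, which used no expression value, took 49 of 22048 protein-coding genes: 4 of complex II, 9 of complex III, Cycs alone, 18 of complex IV and 17 of complex V or named with it. RNA came from bone marrow HSCs sorted as CD48-negative, CD150-positive cells of the LSK fraction (lineage-negative, Sca-1-positive, Kit-positive), in 21 SMART-seq2 libraries of 7 groups with 3 libraries each. The drug bortezomib, which blocks the proteasome, was injected retro-orbitally at 10 mg/kg, 48 h and 24 h ahead of sorting, and controls received 10% DMSO by the same schedule. Both were given to wild-type (WT) mice and to Mx1-Cre;Atg5fl/fl mice, titled Atg5-/- and called knockout-labelled below. The other 3 groups were RFP single positive, RFP GFP double positive and double negative HSCs of untreated RFP-EGFP-LC3 mice, an autophagy reporter strain. Atg5 is needed to attach LC3 to autophagosome membranes, and Mx1-Cre is driven by an interferon-responsive promoter that is not restricted to HSCs. The labels used here give neither the induction of Cre, nor the Cre status of the WT mice, nor the ages, nor whether libraries came from separate animals. The p-values therefore measure the spread between these libraries, which may be partly technical.

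Complex II (succinate dehydrogenase) passes electrons from succinate to ubiquinone and is also an enzyme of the tricarboxylic acid (TCA) cycle. Complex III passes them to cytochrome c and complex IV from there to oxygen. Complex V, the ATP synthase, uses the proton gradient to make ATP. All subunits of complex II, and most subunits of the others, are encoded in the nucleus. Quiescent HSCs are known for relying on glycolysis more than their progeny do, and for raising respiration when they are activated.

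Libraries held 15005500 to 31481691 counts, and members took between 1.02% and 2.48% of them. Counts over the whole Atg5 gene, scaled to library size (CPM), were 55.0, 39.9 and 74.6 in WT DMSO. They were 114, 113 and 107 CPM in knockout-labelled DMSO, without overlap. With bortezomib they were 100, 72.1 and 135 CPM in WT and 95.2, 95.4 and 142 CPM in knockout-labelled libraries. These counts include exons that a deletion would leave, so they do not check the deletion. All 12 HSC markers examined were detected in every group. Markers summed to 3040 to 3373 CPM in WT DMSO, 1801 to 2169 in WT bortezomib, 2882 to 3568 in knockout-labelled DMSO and 2614 to 3038 in knockout-labelled bortezomib. Of 9 B cell markers, 3 (Pax5, Igll1 and Ms4a1) were at 0 in every group, and the 9 summed to 55.2 to 108 CPM over all libraries. Of 9 T and NK cell markers, 4 (Cd3e, Cd3g, Cd8a and Gzma) were at 0 in every group. The sum of those 9 was 87.0 to 92.7 CPM in WT DMSO, 148 to 219 in WT bortezomib, 84.6 to 142 in knockout-labelled DMSO and 49.9 to 129 in knockout-labelled bortezomib, so the 2 WT groups did not overlap. The 11 neutrophil markers summed to 182 to 437 CPM over all libraries. The 11 monocyte and macrophage markers summed to 712 to 950 CPM in WT DMSO and 644 to 923 in WT bortezomib. In knockout-labelled libraries they summed to 492 to 615 CPM with DMSO and 303 to 665 with bortezomib. Under bortezomib, 5 of the 10 tested were lower in knockout-labelled than in WT HSCs and 0 were higher. Over all genes, 15.3% were lower there. The part of these markers in the results was not tested. In bulk RNA, a change in the share of a cell type and a change in RNA per cell cannot be told apart.

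Promoter windows, from 250 bases before to 50 after each RefSeq start (GRCm38.p6), were matched for 38 of the 49 members. Those without an entry were Sdhc, Cyc1, Uqcrb, Uqcrc2, Uqcrq, Cox4i1, Cox4i2, Cox6a2, Cox6c, Cox8c and Atp5a1. Windows are shown for Cycs, the member called with the smallest p under bortezomib in WT, and for Cox6a1, which carries the NRF1-type string at separate places. NRF1 is a transcription factor known for binding promoters of respiratory genes. The parts shown end before any exon of a protein-coding gene, and capitals mark matches to the NRF1-type string CGCANGCGC or the CRE string TGACGTCA. Cycs lies at chr6:50566570-50566819 and Cox6a1 at chr5:115348982-115349208, both on the minus strand and written 5′ to 3′.
Cycs: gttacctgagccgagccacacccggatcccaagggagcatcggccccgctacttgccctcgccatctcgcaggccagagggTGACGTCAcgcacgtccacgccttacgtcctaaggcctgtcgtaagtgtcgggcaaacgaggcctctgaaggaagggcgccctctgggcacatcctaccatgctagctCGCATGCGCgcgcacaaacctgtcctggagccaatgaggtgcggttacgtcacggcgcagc
Cox6a1: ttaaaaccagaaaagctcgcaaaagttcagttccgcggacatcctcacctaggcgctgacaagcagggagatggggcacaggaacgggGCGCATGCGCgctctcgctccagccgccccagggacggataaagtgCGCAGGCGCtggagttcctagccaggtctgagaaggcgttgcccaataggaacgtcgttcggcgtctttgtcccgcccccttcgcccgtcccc

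In all, 11 strings were searched on both strands, and they were chosen while their matches in members were in view, so their shares are descriptions only. The NRF1-type string CGCANGCGC was in 14 of 38 member windows (36.8%) and in 6.59% of the windows of 27025 genes. It was the last of 4 NRF1-type forms to be tried and gave the highest share among members. A longer form with any middle base was in 23.7% of member windows and 4.78% of all, its palindrome in 10.5% and 0.977%, and the form GCATGCGC in 21.1% and 2.81%. The ETS string CCGGAAG was in 28.9% of member windows and 9.12% of all, and ACTTCCGG, which overlaps it, in 10.5% and 4%. The YY1-type string AANATGGCG was in 7.90% and 2.51%, and a longer form of it in 2.63% and 0.899%. The CRE string was in 5.26% and 1.88%, CCAAT in 57.9% and 37.9%, and TCAAGGTCA, bound by estrogen-related receptors, in 5.26% and 0.407%. Windows that hold the NRF1-type string belonged to members that rose under bortezomib in WT and to members that did not. Sdha, which was not called there, held it 3 times, at 97, 54 and 9 bases before the start.

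Under bortezomib in WT HSCs, 38 of the 45 members tested rose and 0 fell at an adjusted p under 0.05 (edgeR quasi-likelihood test, Benjamini-Hochberg adjustment over all 16149 genes). Over all genes tested, 15.5% were called in either direction and 7.97% were higher. The members' median log2 fold change was 0.96, against -0.04 for all genes tested. In 40 members the bortezomib libraries all lay above the DMSO libraries, which held for 19.3% of all genes. Called members numbered 3 of 4 in complex II, 9 of 9 in complex III, 11 of 14 tested in complex IV and 14 of 17 in complex V, besides Cycs. The libraries cover both sexes unevenly: Xist made up 98.6% and 99.2% of the Xist and Ddx3y counts in WT DMSO replicates 2 and 1 and less in replicate 3, and 46.4%, 31.8% and 90.3% with bortezomib. With that share as a covariate, 31 members rose, a count given here without the share of all genes called in that fit.

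**Figure D1:**
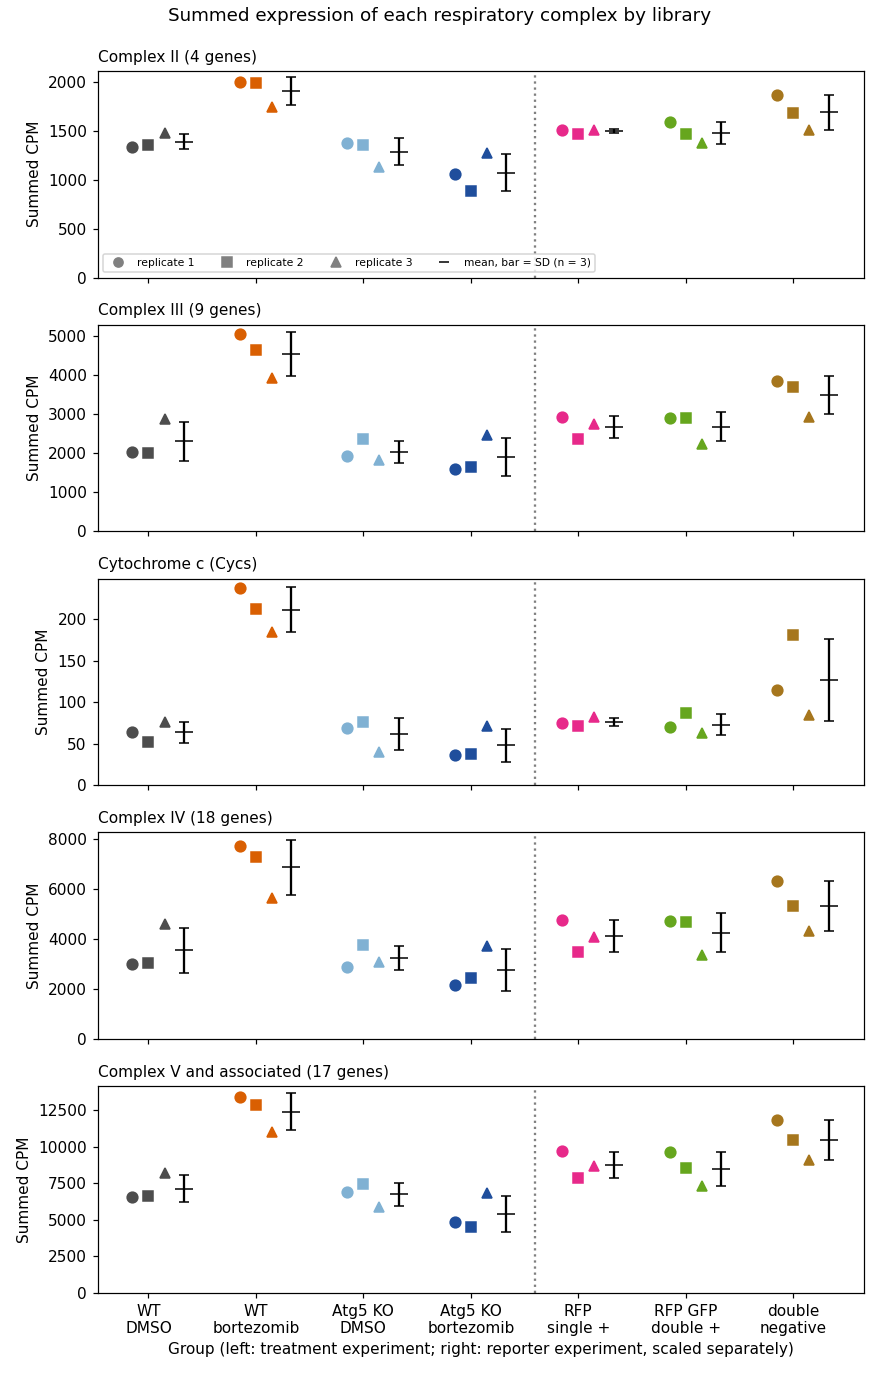
Summed CPM of each complex (y axis) in each library of the 7 groups (x axis). Points are libraries, dashes with bars are means with SD (n = 3), and the 2 experiments were scaled separately. Complexes II, III, IV and V and Cycs are each higher in every WT bortezomib library than in any other library of the treatment experiment.

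In complex II, the iron-sulfur subunit and both membrane anchors rose, and the flavoprotein did not. Sdhb, the iron-sulfur subunit, stood at 204, 226 and 263 CPM in WT DMSO and at 370, 356 and 343 CPM in WT bortezomib (log2 fold change 0.63 ± 0.18 SE, n = 3 a group, edgeR adjusted p = 0.0267). Sdhc, an anchor, moved from 175, 185 and 220 CPM to 331, 315 and 298 CPM (0.71 ± 0.16, edgeR adjusted p = 0.0120). Sdhd, the other anchor, moved from 365, 359 and 560 CPM to 889, 905 and 728 CPM (0.97 ± 0.26, edgeR adjusted p = 0.0201). For none of these did the groups overlap, although the third DMSO library was the highest of its group. Sdha, the flavoprotein that oxidises succinate, had 590, 585 and 433 CPM in DMSO and 402, 414 and 371 CPM in bortezomib (-0.44 ± 0.17, edgeR adjusted p = 0.0873). All its bortezomib libraries lay below its DMSO libraries, and it was not called.

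All members of complex III rose, with log2 fold changes between 0.52 and 1.56. Uqcrq, a small subunit next to cytochrome b, had 151, 156 and 266 CPM in WT DMSO and 592, 571 and 528 CPM in WT bortezomib (1.56 ± 0.27, n = 3 a group, edgeR adjusted p = 0.00405). Cyc1, the cytochrome c1 subunit that hands electrons to cytochrome c, moved from 196, 182 and 240 CPM to 466, 439 and 404 CPM (1.08 ± 0.23, edgeR adjusted p = 0.00835). The small subunit Uqcr10 moved from 242, 218 and 374 CPM to 831, 783 and 453 CPM (1.31 ± 0.28, edgeR adjusted p = 0.00882). The third libraries of both groups were the nearest to each other for these genes. Uqcrfs1, the Rieske iron-sulfur protein, moved from 164, 172 and 209 CPM to 312, 285 and 280 CPM (0.69 ± 0.16, edgeR adjusted p = 0.0112). The smallest rises were those of the core proteins Uqcrc1 (0.52) and Uqcrc2 (0.60).

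Cycs, the soluble carrier between complexes III and IV and a trigger of apoptosis once released, rose from 63.6, 51.6 and 76.7 CPM to 237, 213 and 184 CPM. This 3.30-fold difference (log2 1.72 ± 0.28, n = 3 a group) had an edgeR adjusted p of 0.00327. Hccs, the enzyme that attaches heme to cytochrome c, rose from 54.0 ± 7.44 to 98.4 ± 11 CPM (SD, n = 3, edgeR adjusted p = 0.00636).

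In complex IV, Cox5a had 118, 124 and 156 CPM in WT DMSO and 387, 308 and 290 CPM in WT bortezomib (1.31 ± 0.23, n = 3 a group, edgeR adjusted p = 0.00391). Cox7a2, the widely expressed Cox7a isoform, moved from 212, 226 and 351 CPM to 720, 728 and 502 CPM (1.30 ± 0.25, edgeR adjusted p = 0.00485). Cox7c moved from 194, 202 and 334 CPM to 640, 621 and 444 CPM (1.22 ± 0.25, edgeR adjusted p = 0.00652). These are accessory subunits around the mitochondrially encoded core. Cox5b, another of them, moved from 189, 171 and 269 CPM to 495, 436 and 335 CPM (1.01 ± 0.21, edgeR adjusted p = 0.00723). Members not called were Cox4i1 (0.69, edgeR adjusted p = 0.0557, with no overlap between groups), Cox7a1 (1.11, 0.445) and Cox7a2l (0.07, 0.877), a factor known for joining complexes III and IV. Cox6a2, Cox7b2, Cox8b and Cox8c, isoforms known from muscle or testis, did not pass the filter on low counts and did not exceed 0.459 CPM in any library. Cox7a1, also known from muscle, passed it but stayed between 0.0817 and 2.05 CPM.

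In complex V, Atp5g3, which encodes the c-ring protein, had 450, 481 and 672 CPM in WT DMSO and 1442, 1403 and 1093 CPM in WT bortezomib (1.30 ± 0.23, n = 3 a group, edgeR adjusted p = 0.00405). Atp5g1, another gene for the same mature protein, moved from 165, 182 and 241 CPM to 533, 475 and 400 CPM (1.26 ± 0.25, edgeR adjusted p = 0.00564). Atp5k, the e subunit, moved from 122, 124 and 213 CPM to 481, 461 and 297 CPM (1.43 ± 0.29, edgeR adjusted p = 0.00692). The groups did not overlap for any of these. Atp5o, the stalk subunit that confers oligomycin sensitivity, moved from 266, 268 and 391 CPM to 739, 801 and 551 CPM (1.18 ± 0.25, edgeR adjusted p = 0.00779). Other annotated genes share 47.9% of the exon bases of Atp5o, so its counts are less certain. The catalytic subunit Atp5b rose less (0.54, edgeR adjusted p = 0.0427), and its partner Atp5a1 was not called (0.34, 0.148). Atp5s (0.06, 0.884) and Atp5sl (-0.19, 0.534), which are named with the synthase but are not among its structural subunits, were not called.

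**Figure D2:**
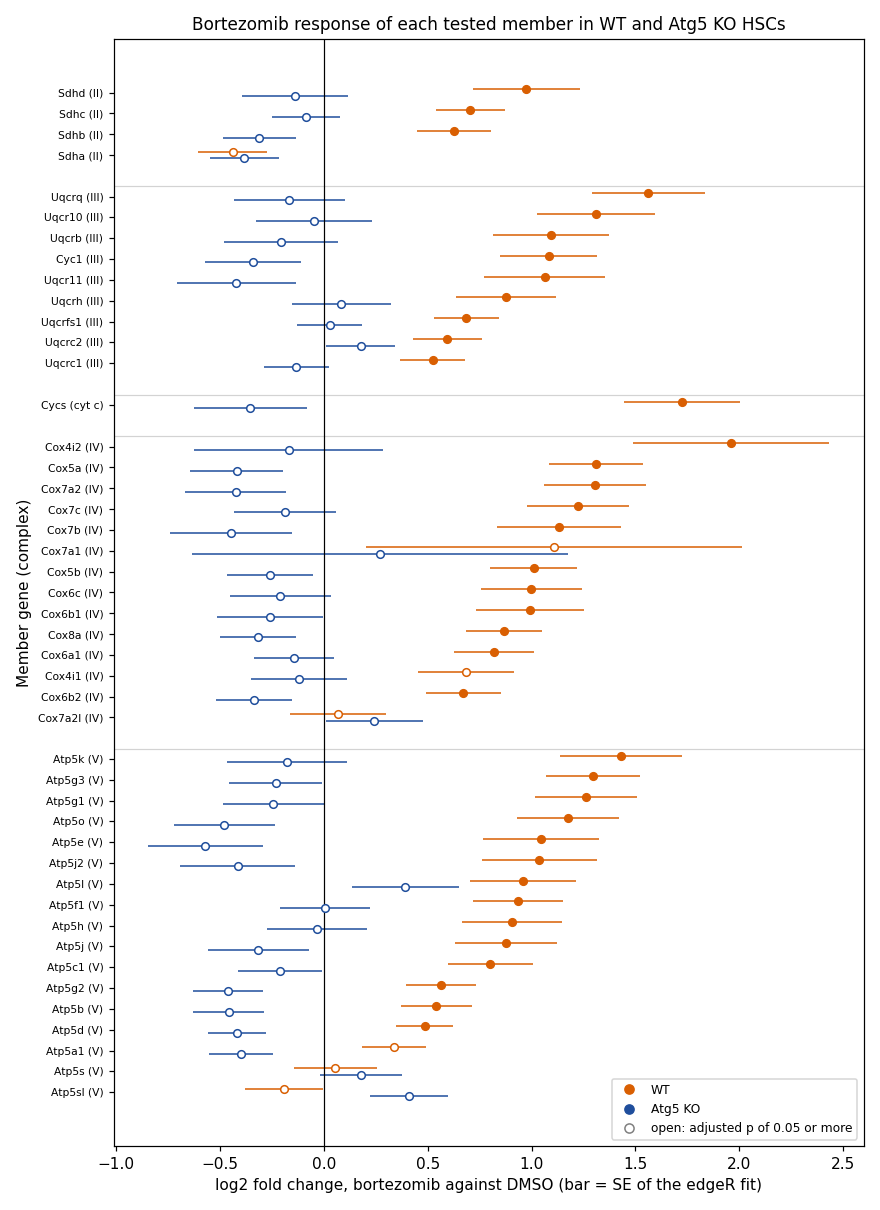
Log2 fold change of bortezomib against DMSO (x axis, bars are SE) for the 45 tested members (y axis, by complex) in WT and Atg5 KO (knockout-labelled) HSCs. Filled points are called. 38 WT points are filled and no knockout-labelled point is.

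Calls changed with the library left out, for members and for all genes. Without WT DMSO replicate 1, 13 members were called (5.80% of all genes), and without replicate 2, 11 (4.32%). Without WT bortezomib replicate 1, 11 were called (3.47%), and without replicate 2, 20 (7.80%). Without WT DMSO replicate 3, 37 members were higher and 1 lower (16.4%). Without WT bortezomib replicate 3, 35 were higher (12.3%). Each run also left fewer samples, and the causes of these changes were not tested. The members' median stayed between 0.84 and 1.20 when each of the 6 libraries was left out. Over every alternative setting and every library left out, 10 members kept their call: Uqcrq, Cycs, Cox5a, Cox5b, Cox7a2, Cox7c, Atp5g1, Atp5g3, Atp5k and Atp5o. WT DMSO replicate 3 was the highest of its group for 40 of 45 members, and WT bortezomib replicate 3 the lowest for 39. Knockout-labelled bortezomib replicate 3 was the highest of its group for 41. Leaving out these 3 libraries together, which was decided with earlier results known, widens the members' separation because of where the members lie in them, so the counts without them support nothing. Without them, 39 members were called higher and 1 lower (Sdha), with 24.1% of all genes called.

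In knockout-labelled HSCs, edgeR called 0 of the 45 members under bortezomib, with 3.63% of all genes called. The median was -0.21, and 6 of 45 members had an unadjusted p under 0.05, against 2691 of 16149 genes. DESeq2 called 1 (7.67% of all genes tested) and limma voom with sample quality weights 13 (9.77%), all lower. Atp5d, the delta subunit of the central stalk, had 306, 318 and 301 CPM in DMSO and 223, 223 and 246 CPM in bortezomib (-0.42 ± 0.14, n = 3 a group, edgeR adjusted p = 0.116). Atp5g2, the third c-ring gene, had 51.9, 48.2 and 52.1 CPM and 35.5, 31.9 and 43.2 CPM (-0.46 ± 0.17, edgeR adjusted p = 0.161). Groups did not overlap for either gene. Without the 3 libraries numbered 3 named above, 20 members were called, all lower, with 11.6% of all genes called. The bortezomib library left out here was the highest of its group for most members, so this count supports nothing either.

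Between genotypes in DMSO, 0 members were called by edgeR, DESeq2 or limma voom, with 0% of all genes called by edgeR. The median was -0.15, and 1 member, Cox4i2, had an unadjusted p under 0.05, against 1454 of 16149 genes. Cox4i2, a Cox4 isoform known from lung, had 4.83, 3.32 and 6.94 CPM in WT and 10.9, 15.8 and 8.87 CPM in knockout-labelled HSCs (1.23 ± 0.47, n = 3 a group, edgeR adjusted p = 0.442). With no filter on low counts it was called (adjusted p = 0.0403). Cox6b2, an isoform known from testis, had 28.1, 32.6 and 38.2 CPM against 34.6, 43.2 and 44.0 CPM (0.30 ± 0.18, edgeR adjusted p = 0.637). Its groups overlapped, while those of Cox4i2 did not. Sex differed along with genotype here. Xist made up 98.6% and 99.2% of Xist and Ddx3y counts in WT DMSO replicates 2 and 1, and less in replicate 3. It made up at most 0.987% in knockout-labelled DMSO. With that share as a covariate, no member was called. The log2 fold changes then lay between -1.09 (Uqcr10) and 0.32 (Sdha), against -0.40 and 1.23 without it. Sex and genotype nearly coincide here, so the 0 calls do not show that the genotypes were level.

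Under bortezomib, 39 of 45 members were lower in knockout-labelled than in WT HSCs and 0 were higher, at a median of -1.18. Over all genes, 32.4% were called and 15.3% were lower. In 39 members every knockout-labelled library lay below every WT library, which held for 21.8% of all genes. The members not called were Sdha, Cox4i2, Cox7a1, Cox7a2l, Atp5s and Atp5sl. The comparison shares the WT bortezomib libraries with the one above, so they are not independent of each other. The call was kept by 34 members in every setting and with each library left out.

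Cycs had 36.3, 37.3 and 70.7 CPM in knockout-labelled bortezomib libraries, against the 237, 213 and 184 CPM of WT (-2.13 ± 0.28, n = 3 a group, edgeR adjusted p = 1.68e-04). Uqcrq had 96.4, 115 and 195 CPM there (-2.06 ± 0.28) and Cyc1 had 124, 93.0 and 186 CPM (-1.70 ± 0.24). In each, the third knockout-labelled library was the highest and still lay below the lowest WT library. Sdhb had 168, 149 and 208 CPM (-1.03 ± 0.18) and Sdhd had 230, 221 and 454 CPM (-1.48 ± 0.26). Cox5a had 88.9, 73.4 and 137 CPM (-1.72 ± 0.23) and Cox7a2 had 144, 157 and 244 CPM (-1.84 ± 0.25). Atp5o had 160, 161 and 267 CPM (-1.83 ± 0.25) and Atp5g3 had 366, 342 and 574 CPM (-1.62 ± 0.23). All of these were called, and in all of them the third library stood nearest to WT.

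The difference between the genotypes in their response to bortezomib was tested as an interaction. It was called for 30 of 45 members, all negative, at a median of -1.11, with 9.05% of all genes called and 4.71% negative. By complex, the calls were 2 in complex II, 5 in III, Cycs, 10 in IV and 12 in V. Cycs had the interaction of -2.08 ± 0.39 (n = 3 a group, edgeR adjusted p = 0.00876), and Cox5a that of -1.73 ± 0.32 (0.00855). Sex differed along with this contrast. Xist made up at most 0.987% of Xist and Ddx3y counts in knockout-labelled DMSO, and 100%, 0% and 3.51% in knockout-labelled bortezomib. With the Xist share as a covariate, 1 member, Cox5a, was called, at a median of -0.83. The share of all genes called in that fit is not given here, so the smaller count does not set members apart. Leaving out replicate 1 gave 12 calls (WT DMSO), 6 (WT bortezomib), 14 (knockout-labelled DMSO) and 14 (knockout-labelled bortezomib). Over all genes, these runs called 4.37%, 2.34%, 3.62% and 4.52%. Leaving out replicate 2 gave 6, 12, 5 and 13 in that order, with 2.46%, 4.01%, 2.07% and 3.69% of all genes. Leaving out replicate 3 gave 36, 29, 29 and 38, with 9.94%, 8.59%, 8.90% and 16.7%. Replicates numbered 3 often hold the members' extremes, so the last counts are descriptions only.

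Under bortezomib in WT, fold changes followed transcript length across all genes. In 10 bins of equal size by transcript length, the median log2 fold change under bortezomib in WT went from 0.45 in the shortest (up to 699 bases) to -0.29 in the longest (from 5633 bases). Under bortezomib in knockout-labelled HSCs, the medians of the same bins lay between -0.09 and 0.06. Members are mostly short: 31 of 45 were in the first 2 bins. Against the median of its own bin, a member lay higher by 0.60 (median), with 41 above and 4 below. Coding genes of at least 100 CPM had a higher median than all genes in each of the 10 bins. Against coding genes of that level in the same bin the median excess was 0.31, with 37 above and 8 below. Between genotypes under bortezomib, the same medians were -0.92 and -0.46.

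Members shorter than 1000 bases had a median of 1.04 under bortezomib in WT (26 of 28 called) and longer ones a median of 0.63 (12 of 17). The longest members were Sdhc (3171 bases) and Cycs (3123 bases), which both rose, and Sdha (2900 bases), which lay below 0 and was not called. With offsets for length and GC content in the fit, 36 members rose in WT at a median of 0.67. Between genotypes under bortezomib, 35 were then lower, and Cox7a2l was higher (0.49, edgeR adjusted p = 0.0496), at a median of -0.98. The interaction was called for 33 members with these offsets, at a median of -0.95. The counts with offsets are given without the share of all genes called, so they do not set members apart from other genes.

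**Figure D3:**
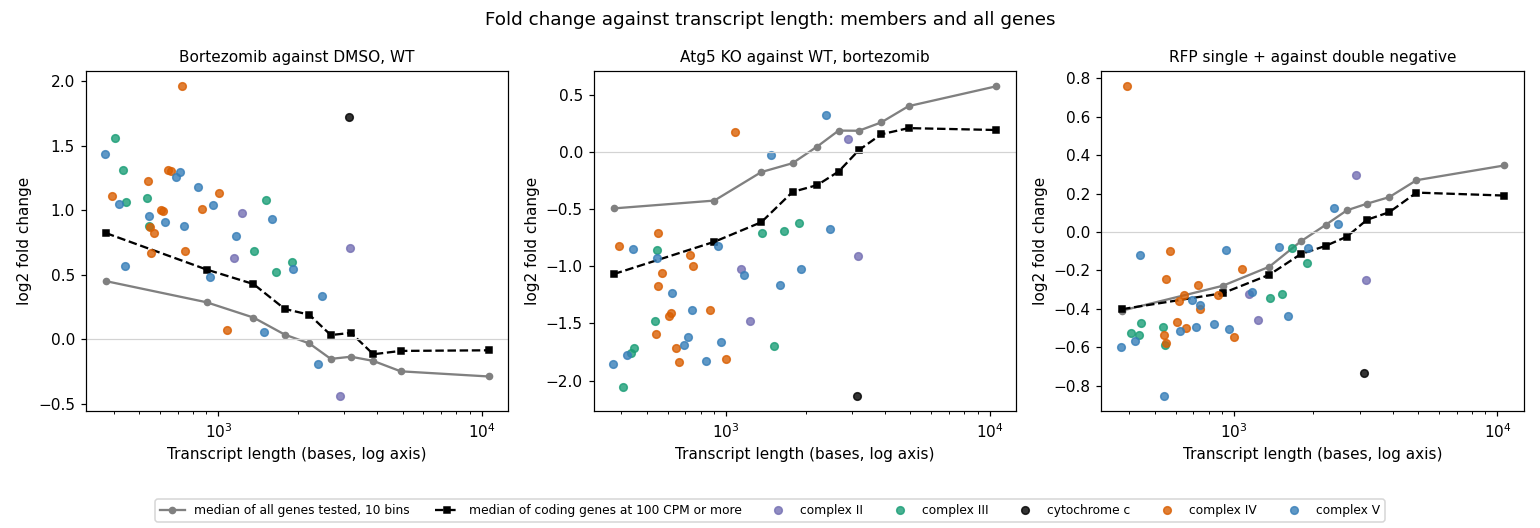
Log2 fold change (y axis) against transcript length in bases (log x axis) for the members (points, by complex) and the medians of 10 length bins (lines, drawn near the middle of each bin). In all 3 panels Cycs lies farther from the bin medians than Sdhc, the member nearest to it in length.

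The balance of short to long genes differed between single libraries. It was measured as the median log2 CPM of short genes minus that of long genes, centred over the libraries of an experiment. In WT it was -0.26, -0.11 and 0.54 with DMSO and 0.66, 0.55 and 0.78 with bortezomib. Knockout-labelled libraries had -0.55, -0.18 and -0.40 in DMSO and -0.59, -0.52 and 0.24 in bortezomib. The members' centred medians in WT were -0.28, -0.26 and 0.25 with DMSO and 1.04, 0.94 and 0.55 with bortezomib. They were -0.73, -0.65 and -0.03 in knockout-labelled bortezomib. Among the WT DMSO libraries, replicate 3 was nearest to the WT bortezomib libraries in balance and also in its members' median, which was still below theirs. The part of this balance in the results was not tested beyond the offsets above.

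**Figure D4:**
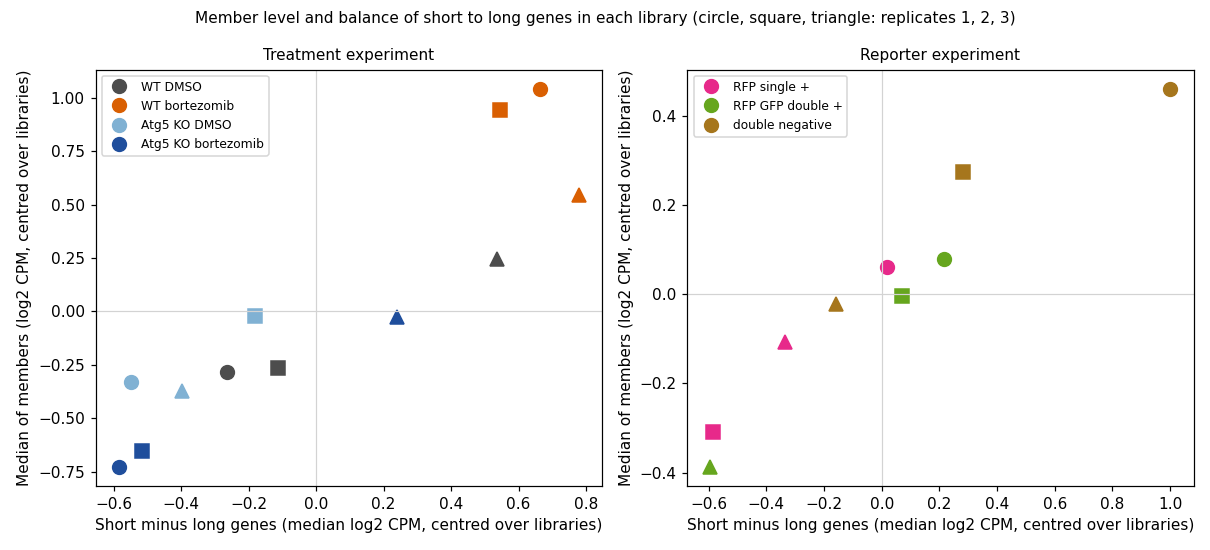
Median centred log2 CPM of the members (y axis) against the short-minus-long balance (x axis) of each library, by experiment. Each point is a library. On the y axis, WT bortezomib libraries lie at 0.55 to 1.04 and WT DMSO libraries at -0.28 to 0.25. WT DMSO replicate 3, at 0.25, is the DMSO library of WT nearest to them on both axes.

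Subunits with several genes were compared by CPM per kb of transcript. Cox4i1 stood at 987 ± 289 in WT DMSO and Cox4i2 at 6.92 ± 2.50 (SD, n = 3). In WT bortezomib they stood at 1588 ± 136 and 27.0 ± 12.3. Cox4i1 was the higher by far in all 7 groups. For the c-ring, the order was Atp5g3 (749 ± 168), Atp5g1 (284 ± 57.3) and Atp5g2 (101 ± 11.7) in WT DMSO. The same genes stood at 1839 ± 268, 680 ± 96.2 and 150 ± 3.98 under bortezomib in WT. Cox7a2 stood at 399 ± 116 in WT DMSO, above Cox7a2l at 126 ± 35.1 and Cox7a1 at 1.40 ± 0.136. Cox6b1 stood at 763 ± 221 and Cox6b2 at 59.6 ± 9.10. Of the Cox6a and Cox8 families, Cox6a1 and Cox8a passed the filter.

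**Figure D5:**
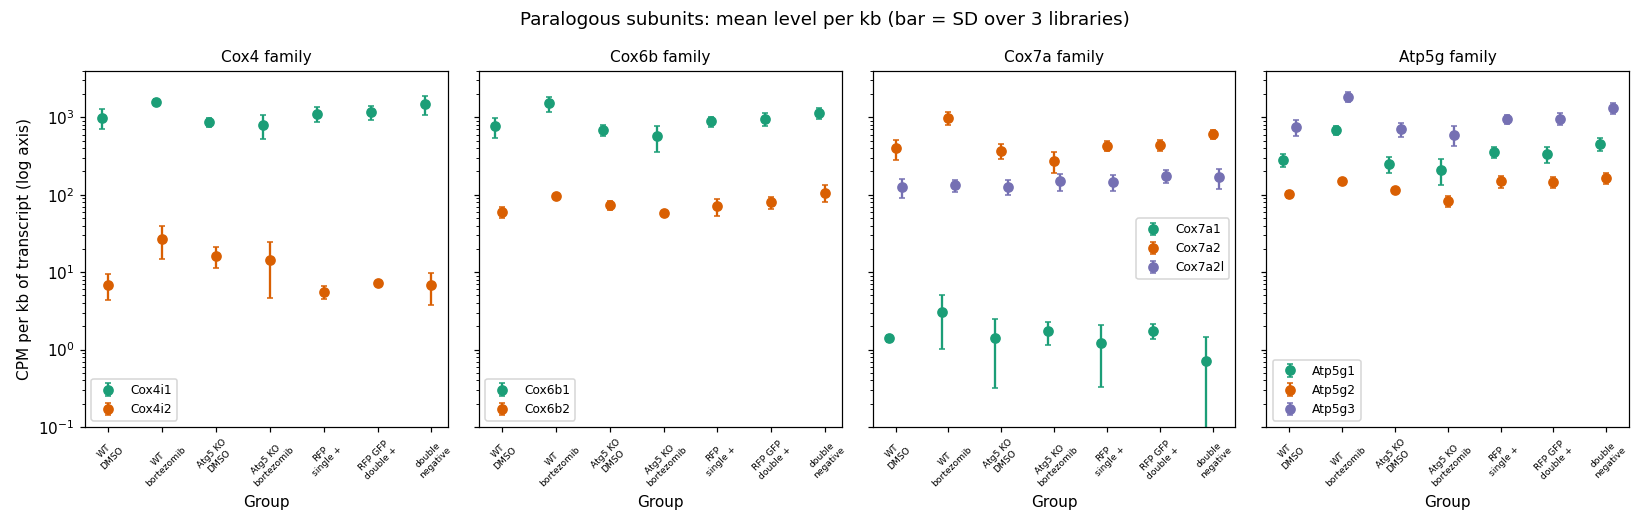
Mean CPM per kb (log y axis) of paralogous subunits in the 7 groups (x axis), with bars of SD over 3 libraries. The order of the genes within each of the 4 families is the same in every group, and a bar of Cox7a1 reaches below the axis.

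Other genes of the pathway were counted by list. Under bortezomib in WT, 7.97% of all genes tested were higher and 15.5% were called in either direction. Of the 3 subunits outside the symbol rule, Ndufa4 (1.02), Usmg5 (1.15) and 2010107E04Rik (1.31), 3 rose under bortezomib in WT. Of 21 assembly factors of complex IV tested, 5 rose and 0 fell, among them Cmc2 (0.95) and Cox17 (0.83), which handles copper. Atpif1, the inhibitor of the ATP synthase, rose (1.03), as did Tmem70 (0.68), which helps to assemble it. Of 14 TCA cycle genes apart from the Sdh subunits, 3 rose: Idh3a (0.86), Fh1 (0.99) and Mdh2 (0.58). The median of the 14 was 0.24. The 6 mitochondrially encoded subunits of complexes III to V gave 0 calls, with a median of -0.47.

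Of 14 transcriptional regulators of respiratory genes, Esrra (1.08) and Pprc1 (0.76) rose and Ppargc1a fell by 2.34 on the log2 scale. The median of the 14 was 0.11, and 15.5% of all genes were called in either direction. Ppargc1a went from 4.09 ± 1.25 to 0.806 ± 0.347 CPM (SD, n = 3), a low level. Nrf1 was not called (0.14, edgeR adjusted p = 0.58). Of 16 cell cycle genes, 11 rose under bortezomib in WT, such as Cdk1 (1.22) and Birc5 (1.37), against 1287 of 16149 genes. Under bortezomib, 13 of them were lower in knockout-labelled than in WT HSCs, against 2464 of all genes. Of 12 HSC markers, 8 were lower under bortezomib in WT, against 1221 of all genes. The 11 erythroid markers summed to 2164 to 2435 CPM in WT DMSO, 1981 to 2080 in WT bortezomib, 1665 to 2077 in knockout-labelled DMSO and 1009 to 1192 in knockout-labelled bortezomib. Under bortezomib in WT, 2 of the 10 tested were higher and 1 was lower. Between genotypes under bortezomib, 1 was higher and 2 were lower, and their median log2 fold change was 1.47, opposite in sign to the change of the sum. The part of these cell states in the members' results was not tested.

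In the reporter experiment, edgeR, DESeq2 and limma voom called 0 members in each of the 3 comparisons. Over all 15375 genes tested, edgeR called 0% between RFP single positive and double positive, 0% between single positive and double negative, and 0.0065% between double positive and double negative HSCs. The members' medians were -0.01, -0.36 and -0.38 in that order, and 0, 18 and 13 of 45 members had an unadjusted p under 0.05, against 209, 1160 and 1315 of all genes. Against double negative HSCs, 41 of 45 members were negative in RFP single positive and 40 in double positive HSCs, against 7415 and 7451 of all genes. These 2 comparisons share the double negative libraries. By the share of Xist, sex followed the replicate number in these libraries, and its part in the results was not tested. Xist made up 99.9%, 97.4% and 88.1% of Xist and Ddx3y counts in the replicates numbered 2 of single positive, double positive and double negative HSCs, and 0% to 10.2% in the others.

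Cycs had 74.7, 71.6 and 81.9 CPM in single positive, 70.1, 86.7 and 62.4 in double positive, and 115, 180 and 84.1 in double negative HSCs. The differences from double negative were -0.73 ± 0.26 and -0.79 ± 0.26 (n = 3 a group, edgeR adjusted p = 0.651 and 0.555). Single positive and double negative libraries did not overlap. Atp5l, the g subunit, had 42.1, 35.9 and 34.7 CPM in single positive, 65.8, 45.6 and 38.5 in double positive and 83.6, 65.0 and 55.0 in double negative HSCs. Atp5k had 182, 144 and 183, 192, 166 and 123, and 282, 299 and 189 CPM in the same order, with double positive libraries overlapping double negative ones. Cox7a2l had 201, 134 and 137 CPM in single positive and 204, 210 and 146 in double positive HSCs.

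The length trend was present here too, with bin medians from -0.41 to 0.35 between single positive and double negative HSCs. The members' median distance from their own bin was -0.10 there and -0.21 between double positive and double negative HSCs. With length and GC offsets the medians of the 3 comparisons were 0.10, -0.11 and -0.16. The balance of short to long genes was 1.00, 0.28 and -0.16 in the double negative libraries. RFP single positive replicate 2 and double positive replicate 3 were each the lowest of their group for 41 of 45 members.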

How the data were processed

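The authors deposited raw counts per gene for 47729 genes, and 0 columns had no sample. Per the submitters' processing notes, Bowtie 1.0.0, STAR 2.6.1 and HTSeq 0.7.1 were used, and GRCm38.p4 and GRCh38 are named without their roles. Not given in the sources used here: annotation release, strand setting and handling of multimapping reads. Counts were filtered with filterByExpr, scaled by TMM and fitted with edgeR 4.0.16 in R 4.3.3, with a single quasi-likelihood fit per experiment. SE is the log2 fold change divided by the root of its F. CPM use TMM-scaled library sizes. The 3-count floor was 0.0964 to 0.190 CPM. Rose, fell, higher and lower for counts refer to calls.

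Every member is reported by complex. Library values are given for the called members with the smallest p (up to 4 a complex under bortezomib in WT, 2 a complex elsewhere, or 2 in all where none was called). Members and lists were chosen with earlier results of these data known. Some choices were made after values had been seen. Length was first the longest GENCODE M21 principal transcript and was changed to the lower median of the principal transcripts. The 100 CPM and 1000 base limits, the 11 promoter strings and both added offset fits were also chosen then. Alternatives were RLE factors, DESeq2 1.42.0, voom in limma 3.58.1, no filter, the replicate block, length and GC offsets, only the libraries compared, the Xist share, and leaving out libraries. The procedure was tested on simulated data. Figures used matplotlib 3.10.9.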

Additional observations from a re-analysis of the deposited data

Results flagged for a closer look

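The bortezomib response differed between knockout-labelled and WT HSCs, by a test of the interaction, for 30 members. Among those with the smallest p, the log2 difference of the responses was -2.08 for Cycs, -0.94 for Sdhb and -0.79 for Sdhc. It was -1.73 for Uqcrq and -1.42 for Cyc1 in complex III. In complex IV it was -1.73 for Cox5a and -1.73 for Cox7a2, and in complex V -1.53 for Atp5g3 and -1.65 for Atp5o. With the Xist share as a covariate only Cox5a was called.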

How the results depend on the processing

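No member picked by the rule for library values changed direction under any alternative run. Of the other members printed, Cox7a2l (0.07) and Atp5s (0.06), not called under bortezomib in WT, were at -0.03 and -0.05 with the Xist covariate. Calls under bortezomib in WT numbered 11 to 38 with each library left out (13 and 11 without WT DMSO replicates 1 and 2, and 11 and 20 without WT bortezomib replicates 1 and 2). Over all genes, the same runs called between 3.47% and 16.4%. In knockout-labelled HSCs the 0 calls became 1 with DESeq2, 13 with limma voom, 20 without the 3 libraries numbered 3, 14 with length and GC offsets besides (these 2 counts support nothing, since the libraries left out hold the members' extremes), and 0 to 1 with each library left out. Between genotypes in DMSO, no filter on low counts gave 1. The interaction gave 1 with the Xist covariate and 5 to 38 with each library left out (2.07% to 16.7% of all genes). The causes were not tested, except that leaving out libraries leaves fewer samples. Between genotypes under bortezomib, leaving out each library gave 36 to 40. Offsets with the longest principal transcript gave 37 calls in WT. With the replicate number as a block, calls were 40 in WT, 0 in knockout-labelled HSCs, 39 between genotypes under bortezomib and 32 in the interaction, and 0 in the other comparisons. Counts printed without a share of all genes beside them do not set members apart from other genes. Same-numbered libraries had correlations of -0.03 to 0.16, and in no comparison were all 3 above 0.1, so the numbers were not taken to pair the samples. By the share of Xist, reporter libraries with the same number do share their sex.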
